A study of Planococcus citri with 8 samples.

Results

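In the citrus mealybug *Planococcus citri*, 3 of the 40620 gene models in the count table were described here as enzymes that supply isoprenoid building blocks: an HMG-CoA synthase (g36917, scaffold PCITRI_00946), a kinase of the GHMP family (g32752, PCITRI_00620) and an isopentenyl diphosphate isomerase (g36424, PCITRI_00898). They were taken by their identifiers as enzymes of this pathway, with earlier results of these data known. RNA-seq of polyadenylated RNA was available for 4 pools of virgin adult females and 4 pools of mated adult females, each of about 150 whole insects (about 100 mg) of 1 laboratory colony kept on lemons. Virgin females came from lemons set apart and cleared of male cocoons. Mated females came from the main colony once ovisacs were seen, so mating, egg laying and rearing differed together and cannot be told apart. The study gives no age of the females, so a difference in age between the groups cannot be told apart either. The virgin pools carry the replicate numbers 2, 3, 5 and 6, and the mated pools 8, 9, 10 and 11. All pools came from 1 colony, so the p-values below measure the spread between these pools only.

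Every isoprenoid is built from isopentenyl diphosphate (IPP) and its isomer dimethylallyl diphosphate (DMAPP), which animals make from acetyl-CoA through the mevalonate pathway. HMG-CoA synthase joins acetyl-CoA to acetoacetyl-CoA early in the pathway. Enzymes of the GHMP family act on mevalonate and its phosphates, among them mevalonate kinase and the related mevalonate diphosphate decarboxylase, and the isomerase interconverts IPP and DMAPP at the end. Insects do not make sterols and spend these units on juvenile hormone, ubiquinone, dolichol, protein prenylation and, in mealybugs, terpenoid sex pheromones, which virgin females emit. The annotation of g32752 names the GHMP family alone, which also holds galactokinase, and that of g36424 names a NUDIX domain alone. The study identified g36424 as the isomerase by similarity to the tobacco enzyme. It also added the protein to assays of candidate isoprenyl diphosphate synthases given IPP or DMAPP alone, and reports that this supported regular products.

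Total counts of read pairs lay between 29667566 and 40309575 in virgin and between 33242618 and 50301861 in mated libraries. Virgin replicate 2 stood apart from the other virgin libraries. On the log2 scale its level lay, at the median, 49.6% of the way from the mated mean to the mean of the other virgin pools over the 5595 gene models that rose and 60.8% over the 4514 that fell, and results are also given without it where they change. Summed levels of muscle, yolk and homeobox marker genes differed between the groups as well, but the single genes of a list did not all move alike. Genes that rose or fell are those called by the edgeR test described below, under which 26.4% of all gene models tested rose and 21.3% fell. The 11 tropomyosin and troponin genes (muscle) summed to between 1150 and 3466 CPM (counts scaled to a common library size) in virgin and between 643 and 948 CPM in mated pools, and 8 rose. The 4 genes with the N-terminal lipid transport domain of yolk proteins summed to between 215 and 273 CPM in virgin and between 388 and 436 CPM in mated pools. Of these 1 fell and 3 did not pass, with log2 fold changes between -0.96 and 0.38, so the sum does not speak for each yolk gene. The 34 homeobox genes tested, which embryos use to pattern the body, summed to between 406 and 421 CPM in virgin and between 558 and 646 CPM in mated pools. Of these 5 rose, 10 fell and 19 did not pass, with log2 fold changes between -4.81 and 1.31. The 43 cuticle genes tested ranged widely, between 562 CPM (virgin replicate 2) and 10427 CPM (virgin replicate 5) in virgin and between 789 and 1400 CPM in mated pools, and 24 rose and 6 fell. No muscle or yolk gene was at 0 in any library, at most 1 homeobox gene was in any library, and up to 3 cuticle genes were. In whole insects, fewer cells of a type and less RNA per cell cannot be told apart, and the part of tissue makeup in the results below was not tested.

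The isomerase and the GHMP kinase rose in virgin females and the HMG-CoA synthase fell. The isomerase was 3.62-fold (95% interval 3.0 to 4.36) and the kinase 2.29-fold (1.91 to 2.75) higher in virgin than in mated females, and the synthase stood at 0.538 (0.430 to 0.673) of its level in mated females. Each of these changes passed the quasi-likelihood test of edgeR at 0.05, with p-values adjusted by Benjamini-Hochberg over the 21179 gene models tested. Under the same rule 26.4% of all gene models tested rose and 21.3% fell, so a call alone is common in these data.

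The HMG-CoA synthase g36917, which acts first of the 3, had 34, 21.8, 27.6 and 24.7 CPM in virgin replicates 2, 3, 5 and 6, and 49.6, 48.7, 48.6 and 53.9 CPM in mated replicates 8, 9, 10 and 11. CPM were scaled by TMM factors (trimmed mean of M values). All virgin pools lay below all mated pools, with virgin replicate 2 the highest of its group. The means were 27.0 ± 5.22 CPM in virgins, against 50.2 ± 2.53 CPM in mated pools (SD, n = 4 each), and the log2 fold change was -0.89 ± 0.14 (SE, 95% interval -1.22 to -0.57, edgeR adjusted p 0.00230). The lowest mated pool held 1.43 times the level of the highest virgin pool. The coefficient of variation was 19.3% in virgin and 5.04% in mated pools.

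The GHMP family kinase g32752 had 111.9, 129.4, 113.1 and 102.9 CPM in virgin replicates 2, 3, 5 and 6, and 47.5, 58.5, 44.6 and 48.7 CPM in mated replicates 8, 9, 10 and 11. All virgin pools lay above all mated pools, and virgin replicate 2 stood among the other virgin pools. The means were 114 ± 11 CPM in virgins, against 49.8 ± 6.0 CPM in mated pools (SD, n = 4 each), with a log2 fold change of 1.20 ± 0.12 (SE, 95% interval 0.93 to 1.46, edgeR adjusted p 0.000904). The lowest virgin pool held 1.76 times the level of the highest mated pool.

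The isomerase g36424 had 126.1, 169.4, 158.5 and 160.3 CPM in virgin replicates 2, 3, 5 and 6, and 39.2, 47.7, 40.1 and 42.8 CPM in mated replicates 8, 9, 10 and 11. Virgin replicate 2 was the lowest virgin pool and still held 2.64 times the level of the highest mated pool. The means were 154 ± 18.9 CPM in virgins, against 42.4 ± 3.84 CPM in mated pools (SD, n = 4 each), with a log2 fold change of 1.86 ± 0.12 (SE, 95% interval 1.59 to 2.13, edgeR adjusted p 0.000437). Only 8 of the 21179 gene models had a smaller unadjusted p, which places g36424 at rank 9. Its fold change was less extreme, since 2470 gene models (11.7%) had a larger increase in virgin females. The same share was 18.5% for the kinase, and 14.6% of gene models had a larger decrease than the synthase.

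**Figure D1:**
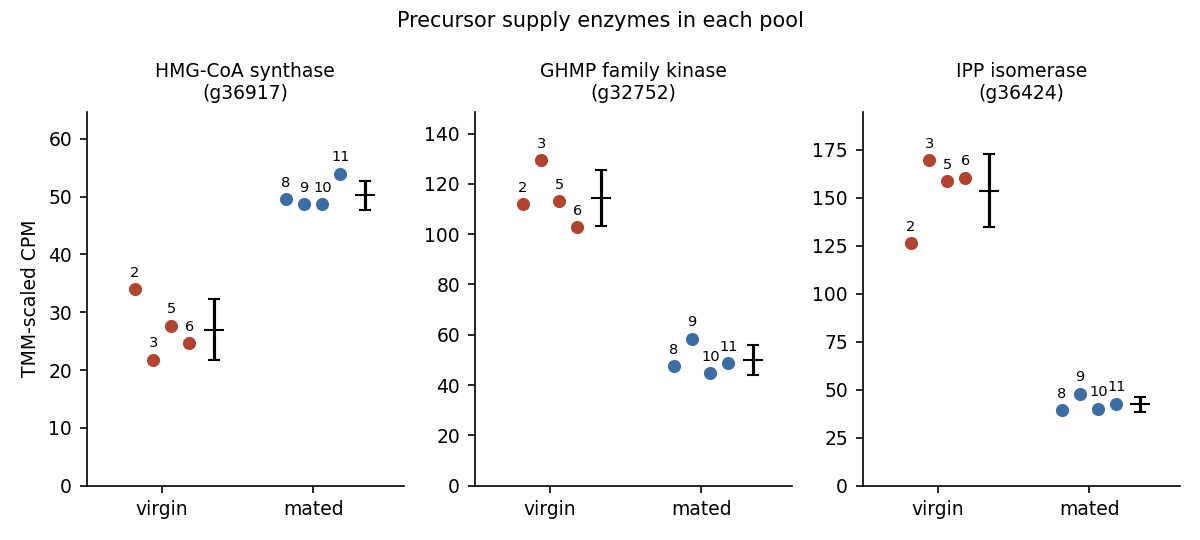
Levels of the HMG-CoA synthase, the GHMP family kinase and the isopentenyl diphosphate (IPP) isomerase in TMM-scaled CPM (vertical axis, from 0) in each virgin pool (red) and mated pool (blue), with the replicate number beside each point and the group mean ± SD as a bar. The virgin pools of the synthase lie between 21.8 and 34 CPM, under all mated pools, while those of the kinase and of the isomerase lie above all mated pools.

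**Figure D2:**
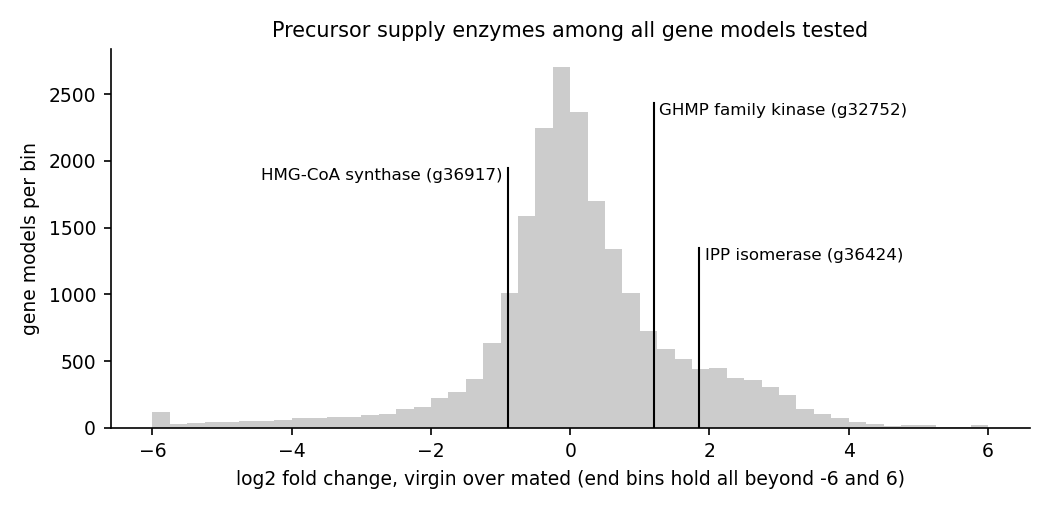
Number of gene models (vertical axis) per bin of log2 fold change of virgin over mated females (horizontal axis) for the 21179 gene models tested, with the enzymes as vertical lines. The synthase stands at -0.89, the kinase at 1.20 and the isomerase at 1.86, inside the spread of all gene models and not at its ends.

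Groups that do not overlap were themselves frequent, with every virgin library above every mated library in 22.1% of gene models tested and below in 21.1%, or 43.2% either way. Reads were not limiting for the enzymes. Their counts ran between 666 and 6146 per library, where counting error alone gives a coefficient of variation between 1.28% and 3.87%. The spread between virgin pools was larger, at 12.3% for the isomerase, 9.65% for the kinase and 19.3% for the synthase, as was that between mated pools, at 9.04%, 12.0% and 5.04% in the same order. Gene models of a like level (within 0.5 log2 CPM of the isomerase) had medians of 16.9% in virgin and 7.56% in mated pools. On the authors' own log2 CPM scale virgin minus mated means were 1.83 for the isomerase, 1.18 for the kinase and -0.93 for the synthase.

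Virgin replicate 2 was placed differently by each enzyme. On the log2 scale it lay 97.2% of the way from the mated mean to the mean of the other virgin pools for the kinase, 81.1% for the isomerase and 54.6% for the synthase. The interquartile range was 30.5% to 73.1% for gene models that rose and 40.4% to 90.4% for those that fell. The kinase and the isomerase thus lay above the range of the gene models that rose, whereas the synthase lay inside that of the gene models that fell. Muscle marker genes in this pool summed to 1150 CPM, nearer to the mated pools, at 643 to 948 CPM, than to the other virgin pools, at 2891 to 3466 CPM. Without virgin replicate 2 all enzymes were still called, with log2 fold changes of 1.93 for the isomerase, 1.20 for the kinase and -1.03 for the synthase.

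Ratios of counts within 1 library need no scaling factor and ask whether the enzymes changed to different extents. Gene lengths were not used here, so the size of a ratio says nothing about which transcript was more abundant, and only its difference between groups is read. Of isomerase to synthase counts there were 3.71, 7.77, 5.74 and 6.50 in virgin replicates 2, 3, 5 and 6, and 0.791, 0.981, 0.824 and 0.793 in mated replicates 8, 9, 10 and 11. The ratio was thus far higher in every virgin pool, and virgin replicate 2 had the lowest value of its group. The mean log2 ratio was 2.52 ± 0.45 in virgin and -0.25 ± 0.15 in mated females (SD, n = 4 each), a difference of 2.76 or 6.79-fold (exact permutation p = 0.0286, two-sided). This p was fixed beforehand, since every virgin pool already lay above every mated pool for the isomerase and below for the synthase.

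The ratio of kinase to synthase counts lay between 3.29 and 5.94 in virgin and between 0.903 and 1.20 in mated pools, a difference of 2.11 in the mean log2 ratio (exact permutation p = 0.0286). The ratio of isomerase to kinase counts was 1.13, 1.31, 1.40 and 1.56 in virgin replicates 2, 3, 5 and 6, and 0.825, 0.817, 0.897 and 0.878 in mated replicates 8, 9, 10 and 11. The isomerase therefore rose more than the kinase, by 0.65 ± 0.10 on the log2 scale (standard error, exact permutation p = 0.0286). Benjamini-Hochberg adjustment over the 3 ratios left 0.0286 unchanged, because all 3 p were equal. The p of both ratios over the synthase were fixed beforehand, so this adjustment gives isomerase over kinase no real correction. With 4 pools against 4 there are 70 splits, and 0.0286 is the smallest p they allow. As for isomerase over synthase, the p of kinase over synthase was fixed by the separation of each enzyme and adds no evidence. Only isomerase over kinase could have come out otherwise.

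**Figure D3:**
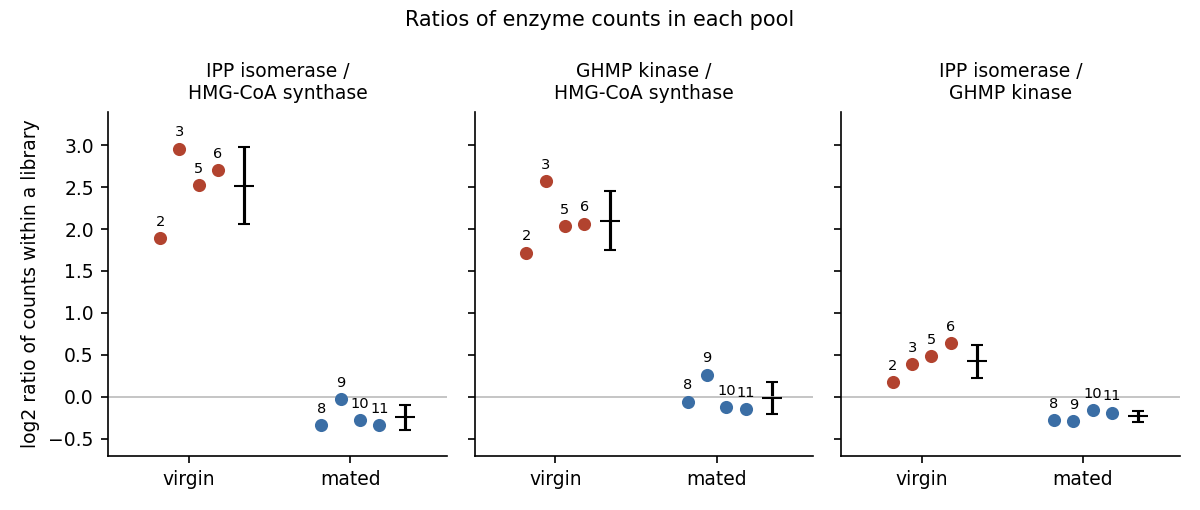
Log2 ratio of the counts of a pair of enzymes within each library (vertical axis), for virgin pools (red) and mated pools (blue), with replicate numbers and the group mean ± SD as a bar. Virgin pools lie above mated pools in all panels, by 2.76 for isomerase over synthase, 2.11 for kinase over synthase and 0.65 for isomerase over kinase.

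Other candidate genes of the pathway were drawn from InterPro entries, and 14 gene models including the enzymes above made the list. Of these, 8 rose, 2 fell and 4 did not pass the test (edgeR), with a median log2 fold change of 0.59. Over all gene models tested 26.4% rose and 21.3% fell, with a median of 0.03. Of the 11 others alone, 6 rose, 1 fell and 4 did not pass. No gene model of the annotation used (0) carried an entry for HMG-CoA reductase, which makes mevalonate, or for phosphomevalonate kinase, and these steps were not analysed here.

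All 4 gene models with a general GHMP kinase entry rose. Besides g32752, g37170 (PCITRI_00969) had 21.2, 27.7, 30.2 and 23.1 CPM in virgin replicates 2, 3, 5 and 6, and 9.85, 11.4, 8.85 and 10.6 CPM in mated replicates 8, 9, 10 and 11 (log2 fold change 1.33 ± 0.15 SE, edgeR adjusted p 0.00114). A further one, g39867 (PCITRI_01227), averaged 48.8 ± 6.39 CPM in virgins, against 21.7 ± 1.01 CPM in mated pools (SD, n = 4 each), with a log2 fold change of 1.17 ± 0.11 (SE, edgeR adjusted p 0.000904). The one with a C-terminal GHMP entry, g40007 (PCITRI_01246), averaged 154 ± 32.5 CPM in virgins, against 64.1 ± 17.8 CPM in mated pools, with a log2 fold change of 1.27 (edgeR adjusted p 0.00335). Every virgin pool lay above every mated pool in each of these, as in 22.1% of all gene models tested, of which 26.4% rose. The 95% intervals of g37170, g39867 and g40007 overlapped each other and that of g32752. Whether each serves the pathway, at which step, or whether some are parts of 1 gene, was not determined. The gene model g1556 carries the entry of galactokinase, a relative that phosphorylates galactose and not mevalonate, and its own substrate was not determined. It had 46.6 ± 5.11 CPM in virgins, against 40.1 ± 3.19 CPM in mated pools and did not pass (log2 fold change 0.21 ± 0.11 SE, edgeR adjusted p 0.140), though it did without virgin replicate 2 (adjusted p = 0.0491).

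Thiolases make the acetoacetyl-CoA that HMG-CoA synthase uses, but thiolases also split fatty acids, and the entries do not separate these roles. Over all gene models tested 26.4% rose and 21.3% fell. Of the 7 thiolase genes, too few to set against these shares, 3 rose, 1 fell and 3 did not pass (edgeR). Their median log2 fold change was -0.06. The one that rose with the smallest p, g2126 (PCITRI_00044), had 152 ± 11.4 CPM in virgins, against 103 ± 6.88 CPM in mated pools (log2 fold change 0.56, edgeR adjusted p 0.00269). The one that fell, g30557 (PCITRI_00472), had 386, 375, 255 and 329 CPM in virgin replicates 2, 3, 5 and 6, and 473, 430, 438 and 447 CPM in mated replicates 8, 9, 10 and 11 (log2 fold change -0.41, edgeR adjusted p 0.0403). Every virgin pool lay below every mated pool, as in 21.1% of all gene models tested. The call of g30557 was lost on leaving out any pool other than virgin replicates 2 and 5, with adjusted p up to 0.0937, and with library size alone (0.0876). The largest increase, in g34948 (PCITRI_00787), rested largely on virgin replicate 5, at 118 CPM against 13.2 to 34 CPM in the other virgin pools and 4.93 to 17.4 CPM in the mated pools. Its log2 fold change of 2.31 (edgeR adjusted p 0.0258) was 1.35 without that pool (adjusted p = 0.0598), and leaving out mated replicate 8, 10 or 11 also ended the call, with adjusted p up to 0.0728, as did limma voom (adjusted p = 0.0504). The remaining one that rose was g23169 (PCITRI_00123), with 75.8 ± 12.2 CPM in virgins, against 49.2 ± 5.75 CPM in mated pools (log2 fold change 0.62, edgeR adjusted p 0.00857). Those that did not pass, g25003, g26475 and g28350, had log2 fold changes of -0.06, -0.25 and -0.07, with edgeR adjusted p of 0.713, 0.128 and 0.515.

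**Figure D4:**
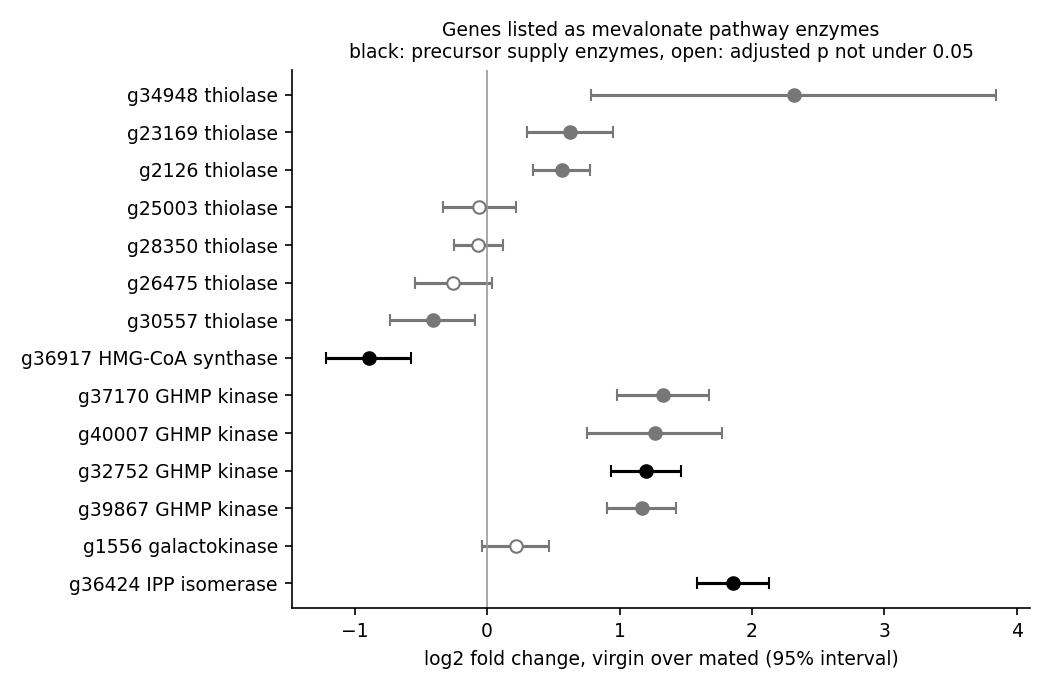
Log2 fold change of virgin over mated females (horizontal axis, with 95% intervals) for the 14 gene models listed as mevalonate pathway enzymes, ordered from thiolases at the top to the isopentenyl diphosphate (IPP) isomerase at the bottom. Black symbols are the enzymes described in full, grey symbols the others, and open symbols did not pass the test. The GHMP kinases other than the galactokinase (0.21) stand between 1.17 and 1.33, and the synthase at -0.89 lies on the other side of 0.

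The isomerase was set beside other members of its domain family. The 9 further gene models with a NUDIX entry, which marks hydrolases of nucleoside diphosphate derivatives, had log2 fold changes between -0.35 and 0.73. Of these, 5 rose, 1 fell and 3 did not pass (edgeR), where 26.4% rose and 21.3% fell over all gene models tested. The one with the smallest p was g1528 (PCITRI_00029), with 33.4 ± 4.18 CPM in virgins, against 20.2 ± 1.04 CPM in mated pools (log2 fold change 0.73, edgeR adjusted p 0.00247). By size of p the next to rise was g30580, at 8.65 ± 2.60 CPM in virgins, against 5.49 ± 0.303 CPM in mated pools (0.66, edgeR adjusted p 0.0352), which no longer passed without virgin replicate 3 or 5 or any mated pool (adjusted p up to 0.0929), with upper-quartile factors (0.0519) or with no filter (0.0595). The one that fell was g26010, with a log2 fold change of -0.35 (edgeR adjusted p 0.0456), which no longer passed when virgin replicate 3 or 5 or any mated pool was left out (adjusted p up to 0.0979) or with library size alone (0.0817). The isomerase's 95% interval, 1.59 to 2.13, lies above all of these estimates, whose own intervals were not compared. Over all gene models tested only 11.7% had a larger increase than the isomerase, so with 9 genes nothing particular to it is read from this.

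Enzymes that draw on the same building blocks were counted next. Isoprenyl diphosphate synthases (IDS) lengthen isoprenoid chains. Of 17 tested gene models returned by the study's sequence search for IDS, which is a list of candidates and not of known synthases, 4 rose, 1 fell and 12 did not pass (edgeR). Their median log2 fold change was 0.15. Over all gene models tested 26.4% rose and 21.3% fell, and nothing is read from the counts of these candidates. Singled out after their values were seen, the one that fell (g4554) and one of those that rose (g9107) had no InterPro entry, and g35512 (otubain peptidase) and g24024 (BIR repeat), which did not pass, had entries of other families. The *trans*IDS5 gene models did not pass, with log2 fold changes of 0.11 (95% interval -0.28 to 0.50, edgeR adjusted p 0.626) for g14484 and 0.01 (95% interval -0.26 to 0.29, edgeR adjusted p 0.932) for g21383, whereas *trans*IDS3 (g32607) had 1.40 (edgeR adjusted p 0.0198) and the *trans*IDS12 gene models g14822 and g14825 had 5.57 and 5.69 (edgeR adjusted p 0.00105 and 0.000904). With virgin replicate 5 or mated replicate 10 or 11 left out *trans*IDS3 no longer passed, with adjusted p up to 0.0600. Of 9 genes of prenyl group transfer and prenyl protein processing, 2 rose, 0 fell and 7 did not pass (edgeR), with a median log2 fold change of 0.04. Nothing is read from these counts either. The 2 that rose were g23872, with a squalene/phytoene synthase entry, at 12.3 ± 1.35 CPM in virgins, against 8.06 ± 0.479 CPM in mated pools (log2 fold change 0.61, edgeR adjusted p 0.00838), and the UbiA prenyltransferase g32456 (0.35, edgeR adjusted p 0.0242), a family that attaches prenyl chains to ubiquinone and related rings. Whether g23872 acts on isoprenoid chains was not determined, as its entry names a family alone. The call of g32456 was lost without virgin replicate 5 or mated replicates 8, 10 or 11, with adjusted p up to 0.0810, with upper-quartile factors (0.0510) and with no filter (0.0709).

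Of the 5 tested gene models numbered next to the enzymes on their scaffolds, 1 passed the test, in the direction opposite to its enzyme. Beside the isomerase, g36423 (an NRDE-2 domain gene) had 32.8 ± 7.17 CPM in virgins, against 40.3 ± 2.60 CPM in mated pools (log2 fold change -0.30, edgeR adjusted p 0.135), and g36425 (Smg8/Smg9 entry, a family of nonsense-mediated decay) had 171 ± 29.3 CPM in virgins, against 149 ± 6.48 CPM in mated pools (0.20, edgeR adjusted p 0.213). Without virgin replicate 2 g36423 fell, with a log2 fold change of -0.47 (edgeR adjusted p 0.00225). It also fell with all libraries in limma voom with quality weights (-0.43, adjusted p 0.00270). Before the kinase, g32751 fell where the kinase rose, with 26.0 ± 0.782 CPM in virgins, against 37.2 ± 4.07 CPM in mated pools (-0.52, edgeR adjusted p 0.00540), while g32753 after it held 1 count over all libraries. Beside the synthase, g36918 (a tRNA methyltransferase entry) had a log2 fold change of 0.08 (edgeR adjusted p 0.704) and g36916 one of -0.57 (edgeR adjusted p 0.189), which was called without virgin replicate 2 (-0.88, adjusted p = 0.0311). With all libraries, limma voom with quality weights called g36916 too, in the direction of the synthase (-1.01, adjusted p 0.00678). In the plot of these models by library, g36916 lay close to the synthase in virgin replicates 3 and 6 and at the mated level in virgin replicate 2, at a mean of only 1.47 ± 0.669 CPM in virgins, against 2.19 ± 0.340 CPM in mated pools. Of the other tested models on their scaffolds, 6 of 18 rose and 4 fell around the isomerase, 2 of 11 rose and 4 fell around the kinase, and 7 of 19 rose and 2 fell around the synthase (edgeR). Over all gene models tested 26.4% rose and 21.3% fell, and with so few models per scaffold nothing is read from these counts.

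**Figure D5:**
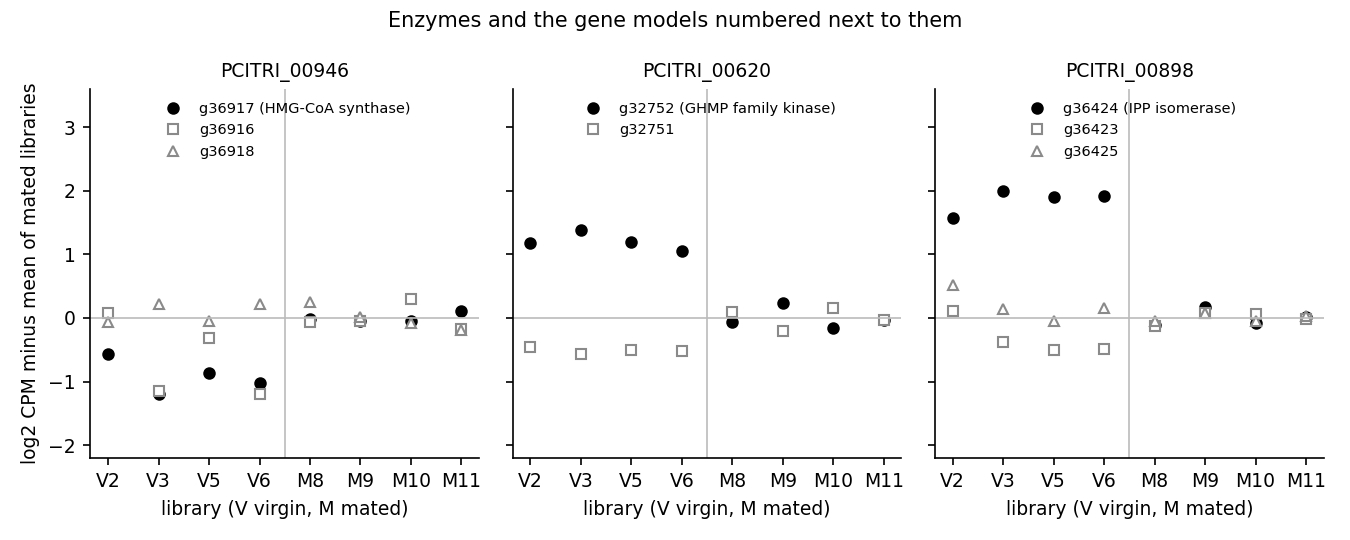
Log2 CPM in each library minus the mean of the mated libraries (vertical axis) for each enzyme (black circles) and the gene models numbered next to it (grey open symbols), with virgin libraries (V) left of mated libraries (M) on the horizontal axis. The isomerase and the kinase stand above 0 in all virgin libraries and the synthase below 0, and the neighbours of the isomerase (g36423, g36425) and the kinase (g32751) lie near or below 0 in most virgin libraries.

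Profiles most like those of the enzymes were found by the root mean square difference of log2 CPM over the 8 libraries, each centred on its own mean, among 15103 gene models whose mean log2 CPM was 1 or more. All libraries enter each profile, so it mostly carries the difference between the groups. Nearest to the isomerase was g29066, a peptide methionine sulphoxide reductase that repairs oxidised proteins, with 824 ± 90.7 CPM in virgins, against 226 ± 36.5 CPM in mated pools and a root mean square difference of 0.113. Next came g39316 (peptidase M13) and g23847 (phosphatidic acid phosphatase type 2 entry), at 0.135 and 0.146. Nearest to the kinase were g38584 (a pyridoxal phosphate-dependent decarboxylase), g1435 (SAYSvFN domain) and g26748 (AlkB-like dioxygenase entry), at 0.106, 0.114 and 0.116. Nearest to the synthase were g17121 (Pellino family), g6076 (SET domain) and g24222 (AAA-type ATPase), at 0.0667, 0.0736 and 0.0843. The kinase ranked 256 among the profiles nearest to the isomerase, at 0.349, and the synthase ranked 13140, at 1.41.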

How the data were processed

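The authors trimmed, filtered and mapped reads in CLC Genomics Workbench to genome Pcitri.v1, and deposited for each library the counts of read pairs with a unique match in a gene model. Reads shared with near-identical copies are lost under that rule, the use of strand is not given in these sources, and values of copies and overlapping genes are uncertain. Deposited too were the log2 CPM of each library, used here as an alternative, and a table of their own log2 fold changes and adjusted p-values, of which only the InterPro entries (1 per gene model, for 11584 of 17669) were used. The submitters' processing notes name edgeR 3.20.9 and limma 3.34.9.

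With edgeR 4.0.16 in R 4.3.3, filterByExpr left 21179 gene models, and after TMM scaling a quasi-likelihood model (glmQLFit, glmQLFTest) compared virgin with mated females with no covariate. Standard errors are Wald errors with the quasi-likelihood variance, and log2 CPM used a prior count of 2. The procedure was tested on simulated data. Ratios were compared by an exact permutation test. Alternatives were RLE and upper-quartile factors, library size alone, DESeq2 1.42.0, limma 3.58.1 voom with and without sample quality weights, no filter, a filter of more than 1 CPM in 3 libraries and each library left out in turn. The members, lists and tests were chosen with earlier results of these data known. Genes named are the enzymes, the pathway list, the 3 nearest profiles of each enzyme, its neighbours on the scaffold, *trans*IDS3, *trans*IDS5 and *trans*IDS12, and up to 2 called genes each way of the NUDIX and prenylation lists. The study calls the pools biological replicates.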

Additional observations from a re-analysis of the deposited data

Results flagged for a closer look

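A library far from the others of its group was seen in 2 places, of 82 groups of 4 libraries checked, where chance gives about 1 in 20 groups. Mated replicate 11 held 53.9 CPM of the HMG-CoA synthase g36917, against 48.6 to 49.6 CPM in the other mated pools, a gap that only just met the limit for 4 samples. Mated replicate 8 held 57.7 CPM of the thiolase g23169, against 45.7 to 47.6 CPM in the other mated pools.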

How the results depend on the processing

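All 16 alternatives run kept the direction and the call of each of the 3 enzymes, with log2 fold changes between 1.78 and 1.94 for g36424, between 1.12 and 1.27 for g32752 and between -1.08 and -0.80 for g36917, and adjusted p up to 0.00333, 0.00536 and 0.0107. Leaving out 1 library gave 1.81 to 1.93, 1.13 to 1.27 and -1.03 to -0.80. Ratio differences without 1 library lay between 2.62 and 2.97 (g36424 over g36917), 1.95 and 2.24 (g32752 over g36917) and 0.58 and 0.73 (g36424 over g32752), where 0.0571 is the smallest p possible. Of the pathway list 5 rose and 1 fell without the thiolases, 1 fell with library size alone, and 7 rose with limma voom. Without 1 library 7 to 9 rose and 1 to 2 fell. Removing the galactokinase, an alternative chosen after seeing the data, left 8 and 2. Of all gene models 5595 rose and 4514 fell, and 6877 fell with quality weights. Without 1 library 4217 to 6891 rose and 3438 to 6724 fell. Higher calls were 48.7% of calls with upper-quartile factors, against 55.3%. Values near 0 changed sign in some fits: g21383 had -0.0073 with RLE, -0.066 with upper-quartile factors, -0.0076 with DESeq2, -0.019 with quality weights, -0.013 without a filter and -0.026 to 0.032 without 1 library, g14484 had -0.0031 with quality weights, g36918 -0.00072 with upper-quartile factors, and g25003 -0.16 to 0.0015 without 1 library. No paired analysis was possible because the groups share no replicate numbers. Pools of whole females do not resolve tissues, and 4 pools per group limit the precision.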
